A study of Mus musculus with 17 samples.

Results

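Expression of 39 genes of macrophages and monocytes was described in the left ventricular apex of mice 3 weeks after transverse aortic constriction (TAC) or Sham surgery. The members were taken by gene symbol from the 21798 gene symbols of the deposited matrix, and all 39 were found in it. For the description they fall into 7 resident-type macrophage genes, 8 genes of recruited monocytes and activated macrophages, and 24 genes that myeloid cells share. Of the 39, 37 passed the filter on low values and were tested. Chil3 and Arg1 did not, and are given by their values only.

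The animals were male C57Bl6/J mice operated on at 7 to 8 weeks of age. Constriction of the aortic arch loads the left ventricle with pressure, and Sham mice underwent surgery without the constriction. 29P, an orally available pro-drug of an RGD-mimetic that is specific for αvβ3 integrin, was given at 50 μg/kg in 6 oral gavages that began 1 week after the operation, and Veh mice received the same volume of saline. The groups were Sham Veh (n = 5, libraries S5, S6, S13, S19 and S20), Sham 29P (n = 3, S4, S14 and S15), TAC Veh (n = 3, S2, S12 and S16) and TAC 29P (n = 6, S1, S3, S8, S9, S11 and S18), with 1 poly(A) RNA library per mouse. According to the study's methods, the authors had taken out libraries with few reads and a further TAC Veh library because it grouped with the Sham libraries. The TAC Veh libraries that remain were therefore chosen in part on their expression.

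Macrophages are resident in the healthy heart, where those that carry Lyve1, Timd4 and Folr2 largely maintain themselves and take up debris. Monocytes arrive from the blood after injury or pressure overload and become macrophages in the tissue. Both depend on the receptor Csf1r and on the lineage factor PU.1, encoded by Spi1, and both carry a common set of lysosomal, complement and Fc receptor genes, so that only some genes separate the populations. In bulk tissue, more or fewer cells of a type cannot be told apart from more or less RNA per cell.

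Values are CPM, the reads of a gene scaled to a common library total, which the authors deposited with a small constant added, from an estimated 14.2 to 23.8 M reads per library. Fold changes are on the log2(CPM + 0.1) scale, which understates the change of low genes, and come from limma fitted to the 16218 genes that passed the filter. The comparisons of TAC with Sham were called at an adjusted p of 0.05 over all these genes, and those of 29P with Veh at an unadjusted p of 0.05, the threshold the study used. Mitochondrially encoded genes took 29.1 to 40.0% of CPM in Sham and 23.6 to 29.4% in TAC libraries, and CPM of other genes shifted with surgery. The median of all genes tested was a log2 fold change of 0.33 for TAC Veh against Sham Veh and 0.36 for TAC 29P against Sham 29P, against 0.01 in both after trimmed-mean (TMM) scaling. With totals without mitochondrial genes these medians were 0.18 and 0.19. What else moved them was not tested. Libraries S18, S19 and S20 held atrial transcripts, with Sln, Myl7 and Myl4 far above the other libraries, although all samples are labelled as ventricle. Cardiomyocyte markers were high in every library (27211 to 42746 CPM summed over 6 genes).

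Following TAC, most of the myeloid genes were more abundant in both treatment arms. In TAC Veh against Sham Veh mice, 27 of the 37 members rose and 1, Retnla, fell (limma, adjusted p), where 23.6% of all genes tested rose and 1.98% fell. The median log2 fold change of the members was 0.87. In TAC 29P against Sham 29P mice, 28 members rose and none fell at the adjusted threshold (28 and 1 at an unadjusted p of 0.05), where 31.5% of all genes rose and 1.15% fell. The median of the members was 1.05 in that comparison. The comparisons share no libraries, but both take their spread from the same fit over all libraries.

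Summed over the 39 members, the level was 602, 550, 640, 644 and 681 CPM in the Sham Veh libraries and 770, 425 and 464 CPM in Sham 29P. It was 1360, 848 and 1073 CPM in TAC Veh and 851 to 1106 CPM (median 963) in TAC 29P. Every TAC library lay above every Sham library. After division by the TMM factor the sums were 538 to 791 CPM in Sham and 773 to 1125 CPM in TAC libraries, and S12, a TAC Veh library, then lay below S4, a Sham 29P library. The animal numbers in the labels fall into 4 runs, and within each run the TAC libraries had higher sums than the Sham libraries. The atrial libraries S18, S19 and S20 make up a run of their own, so atrial content and that run cannot be told apart.

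**Figure D1:**
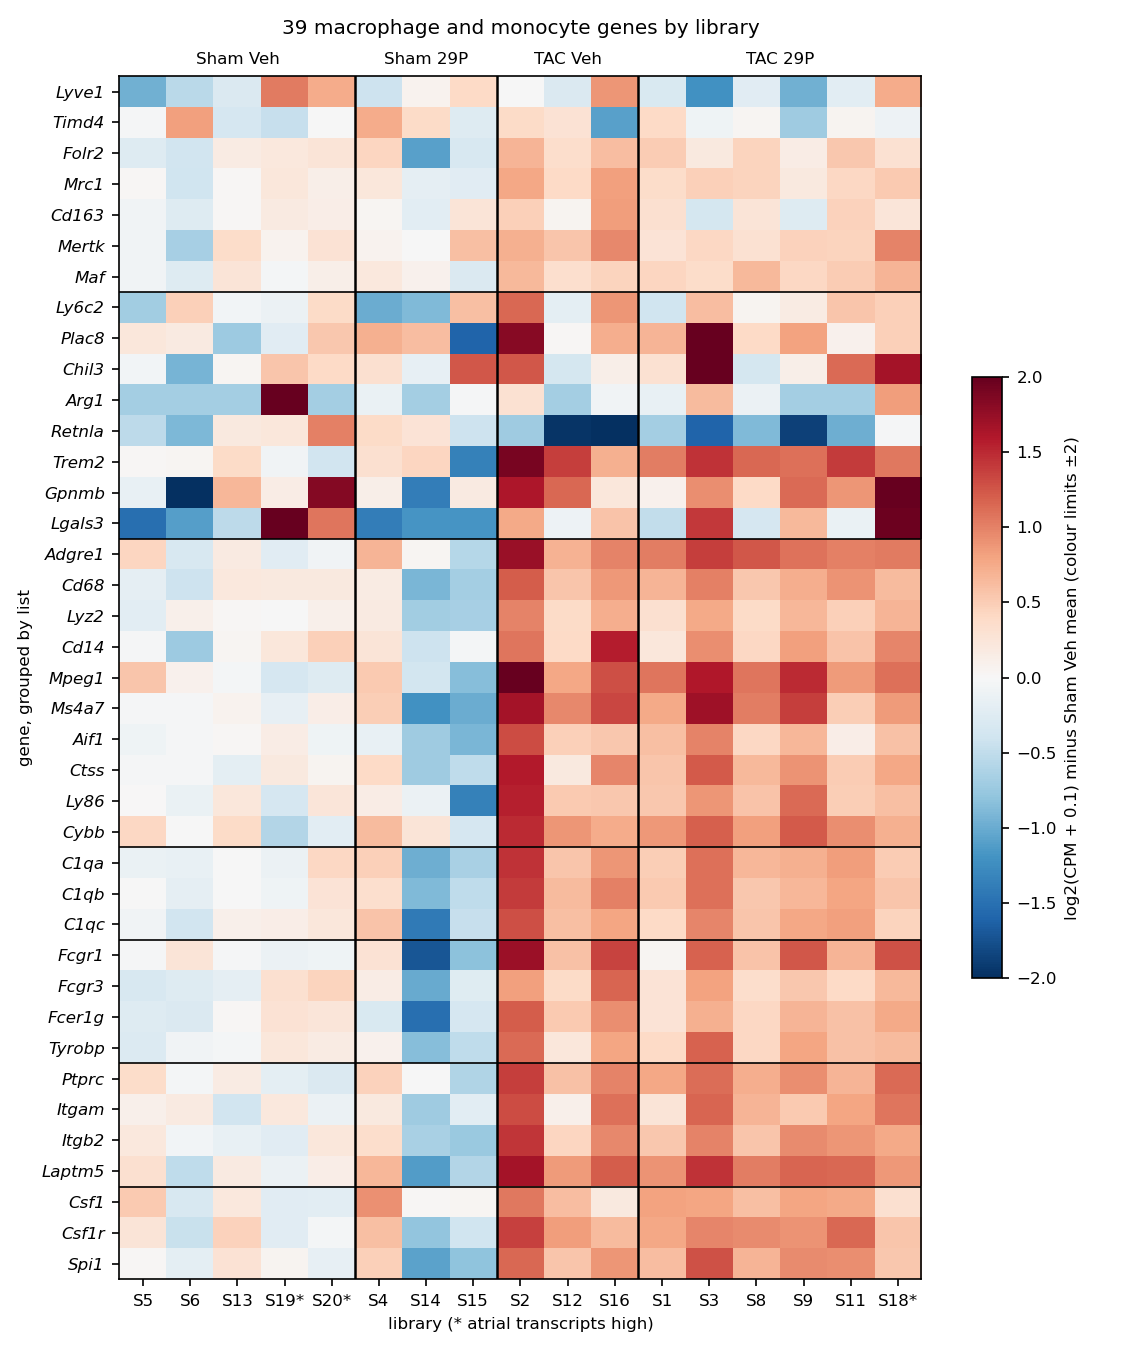
Level of the 39 genes (rows, grouped by list) in the 17 libraries (columns, grouped by surgery and treatment), as log2(CPM + 0.1) minus the Sham Veh mean of the gene, with colours limited at ±2 and asterisks on the 3 libraries with high atrial transcripts. The shared genes are above the Sham Veh mean in all 9 TAC libraries, Retnla is below it in all 9, and S14 and S15 are below it for 21 and 23 of the 24 shared genes.

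The scaling decided how many members passed. After TMM scaling 7 members rose and Retnla fell in TAC Veh against Sham Veh mice, where 4.45% of all genes rose and 5.69% fell, and the median of the members was 0.55. The 7 were Adgre1, Mpeg1, Ms4a7, Cybb, C1qb, Ptprc and Laptm5. At an unadjusted p of 0.05, 23 members were higher after TMM scaling, where 13.2% of all genes were. In TAC 29P against Sham 29P mice 17 members rose and Retnla fell after TMM scaling, where 5.89% and 5.38% of all genes did, and the median was 0.68.

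S2 held the highest value of the 3 TAC Veh libraries for 31 of the 37 members tested, and S12 the lowest for 30. Without S2, no member rose at the adjusted threshold in limma (23 at an unadjusted p of 0.05), where 2.86% of all genes rose, and the median of the members was 0.70. Without S16 17 members rose, where 14% of all genes did, and without the 3 atrial libraries 19 rose and none fell, where 14.4% of all genes rose. Among Sham 29P libraries S4 was highest for 30 members, while S14, the shallowest library, was lowest for 21, and without S14 16 members rose in TAC 29P against Sham 29P mice, where 6.22% of all genes did. With a covariate for the run of animal numbers 5 members rose in that comparison and 28 with Veh, where 5.06% and 20.5% of all genes did.

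**Figure D2:**
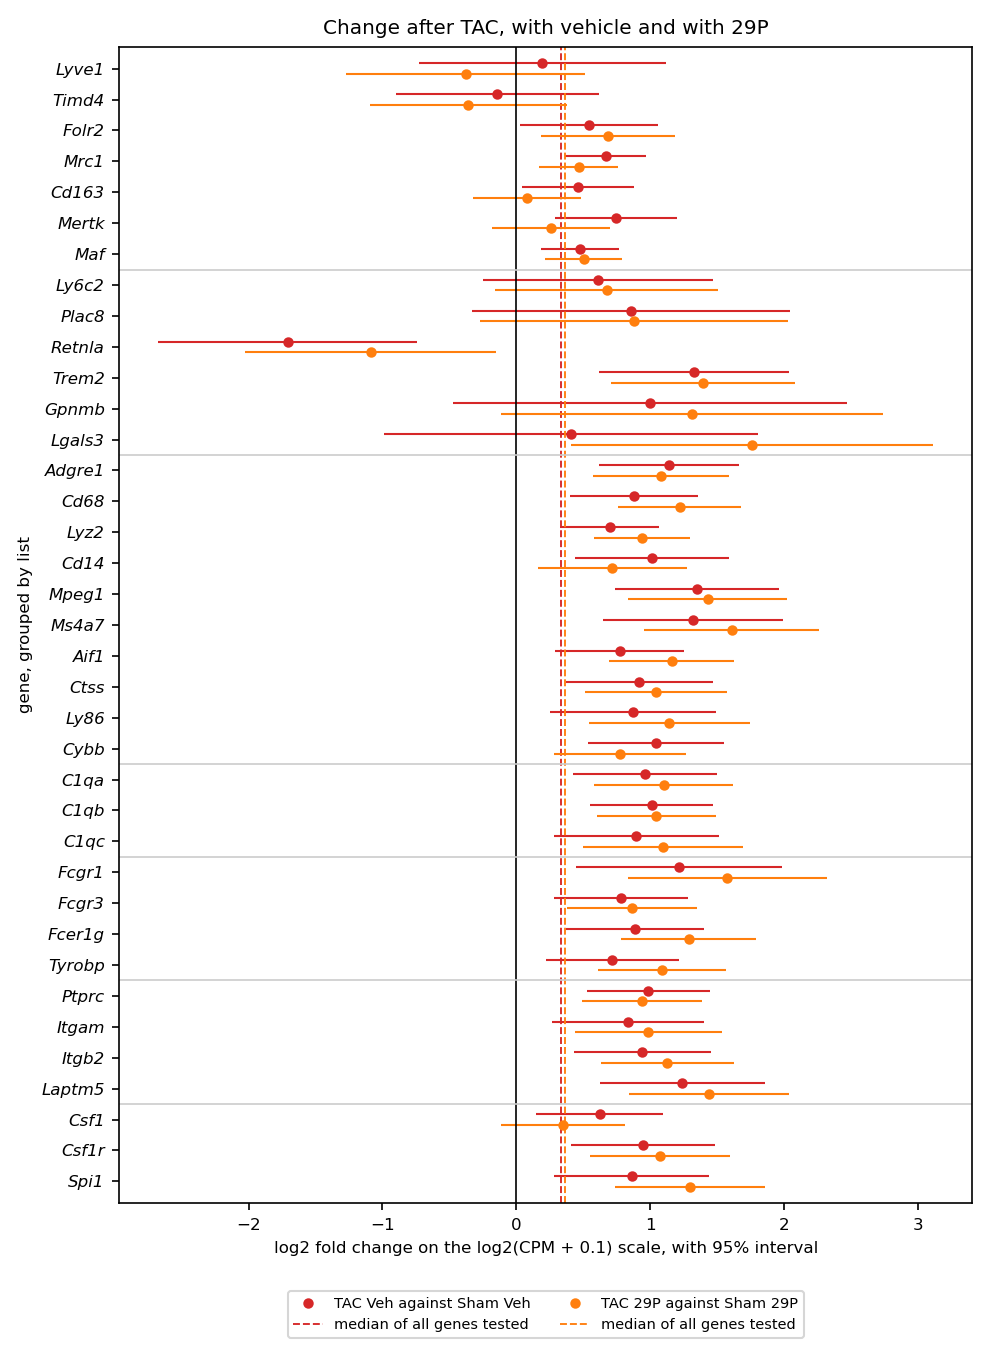
Log2 fold change of the 37 members tested for TAC Veh against Sham Veh (red) and TAC 29P against Sham 29P (orange), with 95% intervals. Dashed lines mark the median of all genes tested, 0.33 and 0.36, and the points of the shared genes other than Csf1 in the 29P arm lie to the right of both lines, with Retnla the member farthest to the left.

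The shared genes moved together. Of the 24, 23 rose in TAC Veh against Sham Veh mice (median log2 fold change 0.93), and 23 rose in TAC 29P against Sham 29P mice, with a median of 1.09. The exception in both comparisons was Csf1. All 10 general macrophage genes rose in both comparisons. Adgre1 encodes F4/80, the surface receptor by which mouse macrophages are commonly recognised. It measured 13.2, 7.74, 10.98, 8.31 and 9.24 CPM in Sham Veh, 15.6, 9.94 and 6.51 CPM in Sham 29P, 32.3, 15.8 and 19.5 CPM in TAC Veh and 19.7 to 25.4 CPM (median 20.4) in TAC 29P libraries. Every TAC library lay above every Sham library, with S12 at 15.8 CPM closest to S4 at 15.6 CPM. The log2 fold change was 1.14 (standard error 0.25, limma adjusted p = 0.00600) with Veh and 1.08 (standard error 0.24, limma adjusted p = 0.00572) with 29P.

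Mpeg1 encodes perforin-2, a pore-forming protein of the phagosome. It measured 26.5, 19.02, 17.5, 14.3 and 14.99 CPM in Sham Veh, 26.1, 13.96 and 9.91 CPM in Sham 29P, 72.7, 30.7 and 43.9 CPM in TAC Veh and 32.4 to 54.8 CPM (median 38.5) in TAC 29P libraries. The Sham and TAC libraries did not overlap. Its log2 fold change with Veh, 1.35 (standard error 0.29, limma adjusted p = 0.00569), was the largest of the members tested, and with 29P it was 1.43 (standard error 0.28, limma adjusted p = 0.00318).

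Ms4a7, a membrane protein of macrophages, had the steepest shared change with 29P. It measured 2.86, 2.86, 3.04, 2.59 and 3.20 CPM in Sham Veh, 4.10, 1.198 and 1.41 CPM in Sham 29P, 9.38, 5.77 and 7.52 CPM in TAC Veh and 4.13 to 9.66 CPM (median 5.68) in TAC 29P. S4 of Sham 29P lay just below S11, the lowest TAC 29P library, at 4.13 CPM. The log2 fold changes were 1.32 (limma adjusted p = 0.00986) with Veh and 1.61 (limma adjusted p = 0.00297) with 29P.

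The remaining general macrophage genes rose by log2 fold changes of 0.70 to 1.04 with Veh and 0.72 to 1.22 with 29P. Cd68, a glycoprotein of the lysosome membrane, averaged 5.60 ± 1.04 CPM (SD, n = 5) in Sham Veh mice, against 10.4 ± 2.43 CPM (SD, n = 3) in TAC Veh mice. Cybb, the catalytic subunit of the phagocyte oxidase, was at 12.5 ± 3.47 CPM (SD, n = 5) and 25.6 ± 7.49 CPM (SD, n = 3), and Cd14, the co-receptor for bacterial lipopolysaccharide, at 5.95 ± 1.67 CPM and 12.3 ± 4.80 CPM in the same groups. In the TAC Veh libraries Cd14 went by another order than most members, with 17.2 CPM in S16 against 12.1 CPM in S2. Ctss (cathepsin S, a lysosomal protease), Aif1 (the actin-binding protein Iba1) and Ly86 (MD-1, which pairs with a Toll-like receptor homologue) had log2 fold changes of 0.92, 0.77 and 0.87 with Veh and 1.04, 1.16 and 1.14 with 29P. Lyz2, lysozyme of macrophages and neutrophils, had the smallest change of this list with Veh, 0.70 (standard error 0.18, limma adjusted p = 0.0123). Reads of Lyz2 can be shared with its near copy Lyz1.

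Per length of annotated exon, averaged over the 17 libraries, Lyz2 was the most abundant member at 168 CPM per kb. C1qb at 44.3 and C1qa at 40.0 CPM per kb came next, followed by C1qc at 19.5 and Ctss at 18.7 CPM per kb. The least abundant were Arg1 at 0.0441 and Chil3 at 0.143 CPM per kb.

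The C1q chains encode the recognition molecule of the classical complement pathway, which tissue macrophages produce and which is assembled from all of them. C1qb measured 34.7, 30.5, 34.5, 32.8 and 42.2 CPM in Sham Veh, 43.7, 18.8 and 24.5 CPM in Sham 29P, 91.4, 54.0 and 69.8 CPM in TAC Veh and 49.9 to 75.0 CPM (median 53.1) in TAC 29P libraries. All 9 TAC libraries lay above all 8 Sham libraries. The log2 fold change of C1qb was 1.01 (standard error 0.22, limma adjusted p = 0.00574) with Veh and 1.05 (standard error 0.21, limma adjusted p = 0.00357) with 29P, and the other chains rose by 0.96 (C1qa) and 0.90 (C1qc) with Veh and by 1.10 each with 29P. The genes lie side by side on chromosome 4, C1qb from 136880129 to 136886187, C1qc from 136889804 to 136893065 and C1qa from 136895917 to 136898803, all on the minus strand of mm10 (GENCODE vM21). The log2 ratio of C1qa to C1qb was between -0.35 and -0.07 in all 17 libraries, -0.22 ± 0.10 (SD, n = 5) in Sham Veh mice, against -0.27 ± 0.09 (SD, n = 3) in TAC Veh mice. The ratio of C1qc to C1qb spread further, from -0.85 in S14 to -0.08.

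Because the shared genes moved together and Spi1 is itself a member, promoters of members were searched for the core sequence that PU.1 prefers, GAGGAA, on both strands (TTCCTC on the other), in the 250 bases before the start of transcription. The RefSeq promoter table (GRCm38.p6) held 29 of the 39 members. Of these genes 15 (51.7%) had the letters in at least 1 promoter, against 25.9% of all 27025 genes in the table, and 17 of 35 member promoters (48.6%) against 23.3% of 32851. The 15 include Retnla, which fell with Veh, and Ly6c2 and Plac8, which did not pass. Lyz2, Mpeg1, Ms4a7, Cybb, Ly86 and Fcer1g, which rose, are among the members without the letters. The core holds GGAA, which factors of the whole ETS family share, and a match is a description of the sequence only. The promoters of the 4 members with a match and the highest mean CPM are printed 5′ to 3′ on the strand of the gene, with the core or its complement in capitals. Bases that the GENCODE vM21 annotation already counts to the gene were left off, so 228 bases are shown for Mrc1 and 99 for C1qc.
C1qb (chr4:136886201-136886450, minus strand): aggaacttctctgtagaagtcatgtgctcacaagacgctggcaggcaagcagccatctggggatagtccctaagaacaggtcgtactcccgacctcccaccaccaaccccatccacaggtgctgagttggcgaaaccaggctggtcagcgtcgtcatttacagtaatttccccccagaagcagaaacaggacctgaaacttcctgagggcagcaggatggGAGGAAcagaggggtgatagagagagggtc
Mrc1 (chr2:14229164-14229391, plus strand): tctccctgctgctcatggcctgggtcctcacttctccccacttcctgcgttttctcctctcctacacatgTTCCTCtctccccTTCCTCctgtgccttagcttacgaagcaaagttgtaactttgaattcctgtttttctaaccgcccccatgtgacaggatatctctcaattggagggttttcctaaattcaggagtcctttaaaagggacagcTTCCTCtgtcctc
C1qc (chr4:136893066-136893164, minus strand): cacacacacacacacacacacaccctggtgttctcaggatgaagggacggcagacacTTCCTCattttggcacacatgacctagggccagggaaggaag
Ctss (chr3:95526536-95526785, plus strand): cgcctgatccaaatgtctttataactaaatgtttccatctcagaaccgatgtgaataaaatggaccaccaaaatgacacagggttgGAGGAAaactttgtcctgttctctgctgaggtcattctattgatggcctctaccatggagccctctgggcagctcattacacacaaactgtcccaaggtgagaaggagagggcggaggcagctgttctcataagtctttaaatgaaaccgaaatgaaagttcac
The core begins 30 bases before the RefSeq start of C1qb and 164 bases before that of Ctss. In Mrc1 its complement occurs 3 times, 180, 167 and 35 bases before the start, and in C1qc once, 193 bases before it.

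The Fc receptor genes and their adaptors all rose in both comparisons. Fcgr1, the high-affinity receptor for IgG, measured 2.73, 3.31, 2.71, 2.55 and 2.60 CPM in Sham Veh, 3.41, 0.775 and 1.52 CPM in Sham 29P, 9.33, 4.21 and 7.20 CPM in TAC Veh and 2.86 to 6.80 CPM (median 5.46) in TAC 29P. The TAC Veh libraries lay above all Sham Veh libraries, while S1 of TAC 29P, at 2.86 CPM, lay below S4 of Sham 29P. The log2 fold changes were 1.22 (limma adjusted p = 0.0244) with Veh and 1.58 (limma adjusted p = 0.00589) with 29P. Fcgr3, a low-affinity IgG receptor, rose by 0.78 and 0.87 on the log2 scale, and its reads can be shared with related Fc receptor genes. Fcer1g, the gamma chain through which these receptors signal, rose by 0.89 and 1.29, and Tyrobp (DAP12), the adaptor of Trem2, by 0.72 and 1.09.

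The leukocyte genes rose as well. Ptprc (CD45), the phosphatase that all leukocytes carry, averaged 10.2 ± 1.95 CPM (SD, n = 5) in Sham Veh mice, against 20.6 ± 5.58 CPM (SD, n = 3) in TAC Veh mice, a log2 fold change of 0.99 (limma adjusted p = 0.00658), and changed by 0.94 with 29P. Itgam (CD11b) and Itgb2 (CD18), the chains of complement receptor 3, rose by 0.83 and 0.94 with Veh and by 0.99 and 1.13 with 29P. Laptm5, a lysosomal membrane protein of blood cells, measured 17.2, 9.62, 15.6, 12.6 and 15.1 CPM in Sham Veh, 21.9, 6.27 and 9.09 CPM in Sham 29P, 44.0, 24.8 and 32.0 CPM in TAC Veh and 25.1 to 37.7 CPM (median 29.4) in TAC 29P libraries, again without overlap. Its log2 fold changes were 1.24 (limma adjusted p = 0.00869) and 1.44 (limma adjusted p = 0.00318). Exons of Itgam are overlapped by Gm49368 in the annotation.

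Of the growth factor, its receptor and the lineage factor, Csf1r and Spi1 rose in both comparisons. Csf1r, the receptor for macrophage colony-stimulating factor, measured 38.7, 23.8, 44.9, 27.8 and 31.7 CPM in Sham Veh, 49.5, 18.8 and 24.8 CPM in Sham 29P, 84.1, 57.8 and 50.7 CPM in TAC Veh and 48.0 to 72.0 CPM (median 61.6) in TAC 29P. The highest Sham library, S4, lay just above the lowest TAC library, S18. Csf1r rose by 0.95 (limma adjusted p = 0.0161) with Veh and 1.07 (limma adjusted p = 0.00681) with 29P on the log2 scale, and the antisense gene Hmgxb3 overlaps its exons. Spi1 rose by 0.86 (limma adjusted p = 0.0308) and 1.30 (limma adjusted p = 0.00379). Csf1, the growth factor itself, which fibroblasts and endothelial cells also produce, measured 52.2, 29.0, 41.7, 31.0 and 31.3 CPM in Sham Veh, 67.9, 36.8 and 37.2 CPM in Sham 29P, 75.2, 55.5 and 41.3 CPM in TAC Veh and 44.9 to 62.9 CPM (median 61.6) in TAC 29P. The groups overlapped, S4 of Sham 29P being above every TAC 29P library. Its log2 fold changes of 0.62 (limma adjusted p = 0.0518) and 0.35 (limma adjusted p = 0.221) did not pass, and the second was -0.02 after TMM scaling.

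**Figure D3:**
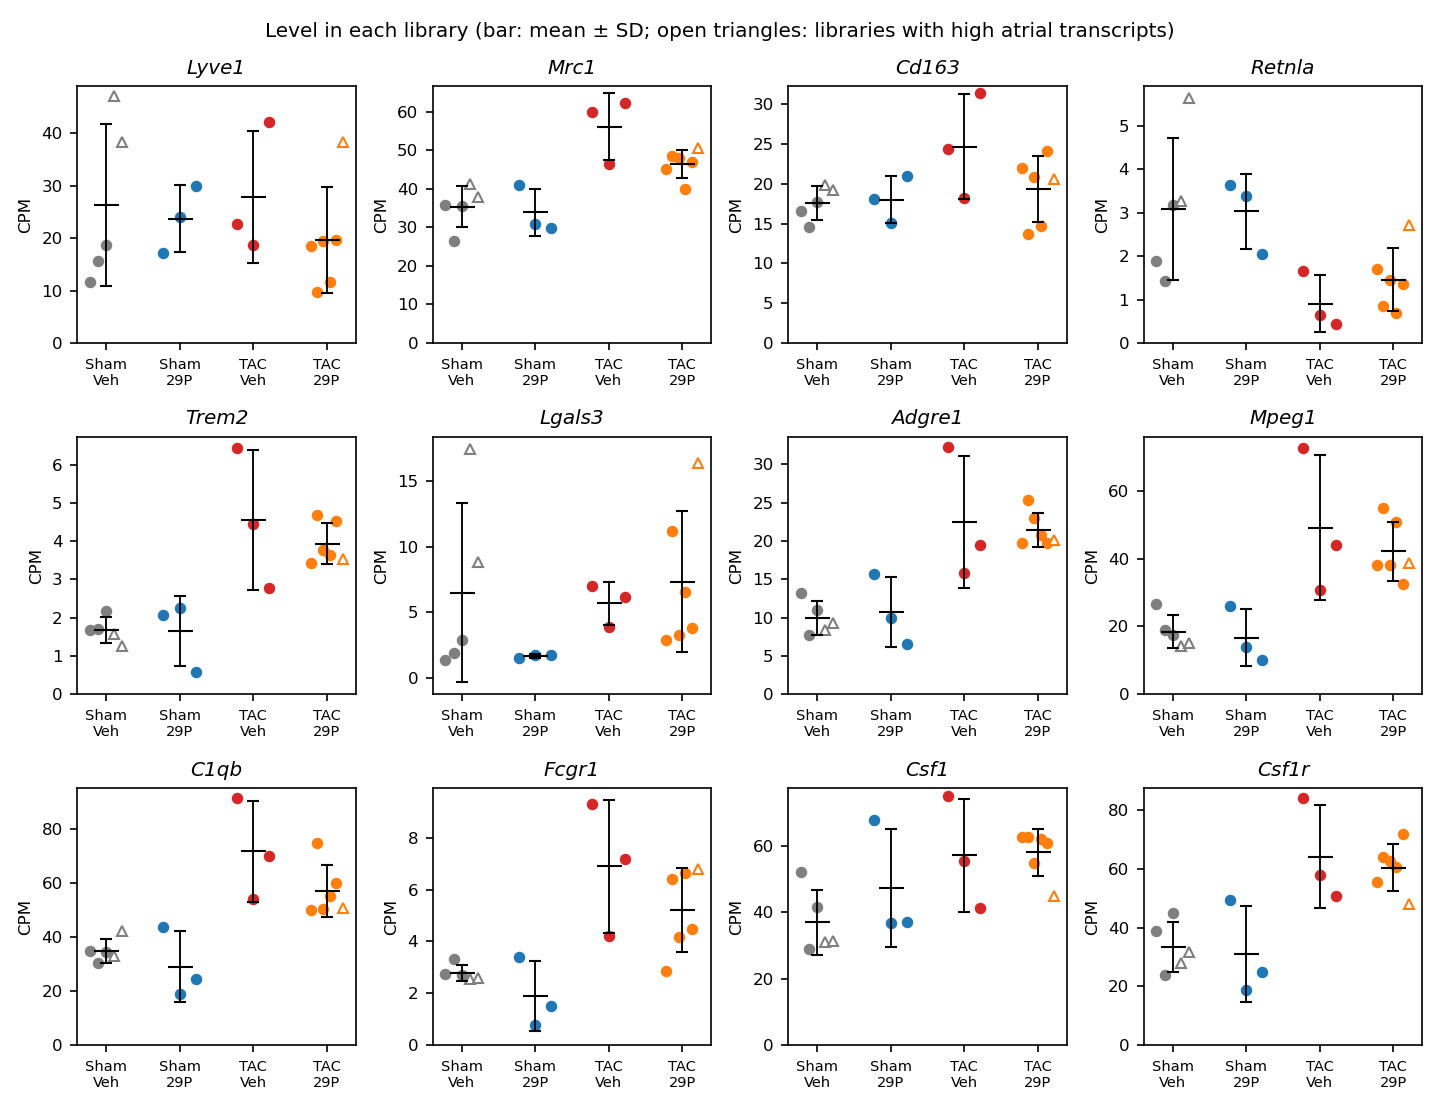
CPM of 12 members in each library by group, with the group mean ± SD in black and open triangles for the libraries with high atrial transcripts (S18, S19, S20). Adgre1, Mpeg1 and C1qb separate TAC from Sham libraries, and the highest values of Retnla, at 5.64 CPM, and Lgals3, at 17.5 CPM, are in atrial libraries.

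Of the 7 resident-type genes, 3 rose in each comparison, where 23.6% of all genes rose with Veh and 31.5% with 29P. Mrc1, Mertk and Maf rose in TAC Veh against Sham Veh mice and Folr2, Mrc1 and Maf in TAC 29P against Sham 29P mice, and the medians of the list were 0.48 and 0.26, beside 0.33 and 0.36 for all genes. None of the 7 passed after TMM scaling in either comparison, where the medians were 0.15 and -0.10. Mrc1, the mannose receptor CD206 by which macrophages take up glycoproteins, measured 35.8, 26.6, 35.6, 41.1 and 38.0 CPM in Sham Veh, 40.9, 30.9 and 29.8 CPM in Sham 29P, 59.9, 46.3 and 62.3 CPM in TAC Veh and 40.1 to 50.7 CPM (median 47.4) in TAC 29P libraries. The TAC Veh libraries lay above all Sham libraries, and the lowest TAC 29P library reached the highest Sham values. The log2 fold change was 0.67 (standard error 0.15, limma adjusted p = 0.00600, exact two-sided permutation p = 0.0357, the smallest that 3 against 5 libraries give) with Veh and 0.47 (standard error 0.14, limma adjusted p = 0.0213) with 29P.

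Mertk, a receptor for the uptake of dying cells, rose by 0.74 (limma adjusted p = 0.0218) with Veh. With 29P its log2 fold change was 0.26 (95% interval -0.18 to 0.70, limma adjusted p = 0.341), and -0.10 after TMM scaling. The difference between these changes was -0.48 (95% interval -1.12 to 0.15, unadjusted p = 0.127, adjusted p = 0.999 in limma) and did not pass. Maf, a transcription factor of mature macrophages, rose by 0.48 and 0.50, and exons of Gm15655 lie opposite its own. Folr2, the folate receptor beta, averaged 8.68 ± 1.71 CPM (SD, n = 5) in Sham Veh mice, against 12.5 ± 1.48 CPM (SD, n = 3) in TAC Veh, a log2 fold change of 0.54 (limma adjusted p = 0.103), and at 7.46 ± 3.85 CPM (SD, n = 3) and 11.05 ± 1.27 CPM (SD, n = 6) in the 29P groups, a change of 0.68 (limma adjusted p = 0.0370). Folr2 is related to Folr1 and its exons are overlapped by Gm10602.

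Cd163, the scavenger receptor for haemoglobin bound to haptoglobin, measured 16.6, 14.6, 17.7, 19.8 and 19.2 CPM in Sham Veh, 18.03, 15.1 and 20.9 CPM in Sham 29P, 24.4, 18.2 and 31.4 CPM in TAC Veh and 13.7 to 24.1 CPM (median 20.7) in TAC 29P. S16 was the only library above 25 CPM. The log2 fold changes were 0.46 (95% interval 0.04 to 0.88, limma adjusted p = 0.0900) and 0.08 (95% interval -0.32 to 0.49, limma adjusted p = 0.760), the second -0.28 after TMM scaling.

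Timd4, a phosphatidylserine receptor that marks self-maintaining macrophages, was low throughout, at 1.21 to 3.09 CPM in Sham and 0.746 to 2.28 CPM in TAC libraries. Its log2 fold changes were -0.14 (95% interval -0.90 to 0.62) with Veh and -0.36 (95% interval -1.09 to 0.38) with 29P.

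Lyve1, the hyaluronan receptor of perivascular macrophages, is also carried by lymphatic endothelial cells. It measured 11.7, 15.7, 18.7, 47.2 and 38.5 CPM in Sham Veh, 17.1, 24.1 and 30.03 CPM in Sham 29P, 22.8, 18.6 and 42.3 CPM in TAC Veh and 9.81 to 38.5 CPM (median 18.97) in TAC 29P. The groups overlapped, and the 4 highest values were in S16 and the atrial libraries S19, S20 and S18. The log2 fold changes were 0.19 (95% interval -0.73 to 1.12, and -0.14 after TMM scaling) with Veh and -0.38 (95% interval -1.27 to 0.52) with 29P, and without the atrial libraries 0.79 (limma adjusted p = 0.0979) and -0.60 (limma adjusted p = 0.117). Of the 5 other lymphatic endothelial markers tested, 4 rose in TAC Veh against Sham Veh mice, where 23.6% of all genes did. Ccl21a rose by 1.16 (limma adjusted p = 9.36e-04). After TMM scaling Ccl21a and Pdpn kept their calls with Veh and Reln did not. In the 29P arm Ccl21a and Pdpn rose, while Reln, at 0.29 (limma adjusted p = 0.405), did not pass. Summed over that list the level was 60.3 to 111 CPM in Sham and 111 to 146 CPM in TAC libraries. The part of lymphatic endothelium in the level of Lyve1 was not tested.

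Log2 ratios within a library, of CPM + 0.1, were formed against Adgre1 after the values had been seen. The log2 ratio of Timd4 to Adgre1 averaged -2.44 ± 0.68 (SD, n = 5) with Veh and -2.20 ± 0.16 (SD, n = 3) with 29P after Sham surgery, and -3.72 ± 0.84 (SD, n = 3) with Veh and -3.64 ± 0.41 (SD, n = 6) with 29P after TAC. The ratio of Cd163 to Adgre1 was 0.84 ± 0.35 and 0.82 ± 0.76 in the Sham groups and 0.16 ± 0.55 and -0.17 ± 0.44 in the TAC groups, in the same order. That of Mrc1 to Adgre1 was 1.84 ± 0.33, 1.73 ± 0.41, 1.37 ± 0.42 and 1.12 ± 0.16, and that of Maf 0.90 ± 0.29, 0.85 ± 0.38, 0.24 ± 0.37 and 0.28 ± 0.22. All 7 resident-type genes had lower mean ratios in each TAC group than in the Sham group of the same treatment. The libraries overlapped in each case other than Timd4 and Mrc1 in the 29P arm. For C1qb the ratio was 1.83 ± 0.31, 1.43 ± 0.49, 1.70 ± 0.18 and 1.395 ± 0.17, and did not separate the groups. With Csf1r in place of Adgre1 the resident-type means were lower after TAC as well, Timd4 at -4.18 ± 0.77 in Sham Veh and -5.26 ± 0.60 in TAC Veh. Adgre1 itself rose by 1.14 with Veh and 1.08 with 29P, against medians of 0.33 and 0.36 for all genes. Any gene that rose less has a lower ratio after TAC, so these ratios restate the fold changes. Of the shared genes, only Mpeg1, Ms4a7, Fcgr1 and Laptm5 rose more than Adgre1 with Veh. All the others changed less, among them C1qb (1.01), Csf1r (0.95), Tyrobp (0.72) and Lyz2 (0.70). A lower ratio was thus not particular to the resident-type genes.

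**Figure D4:**
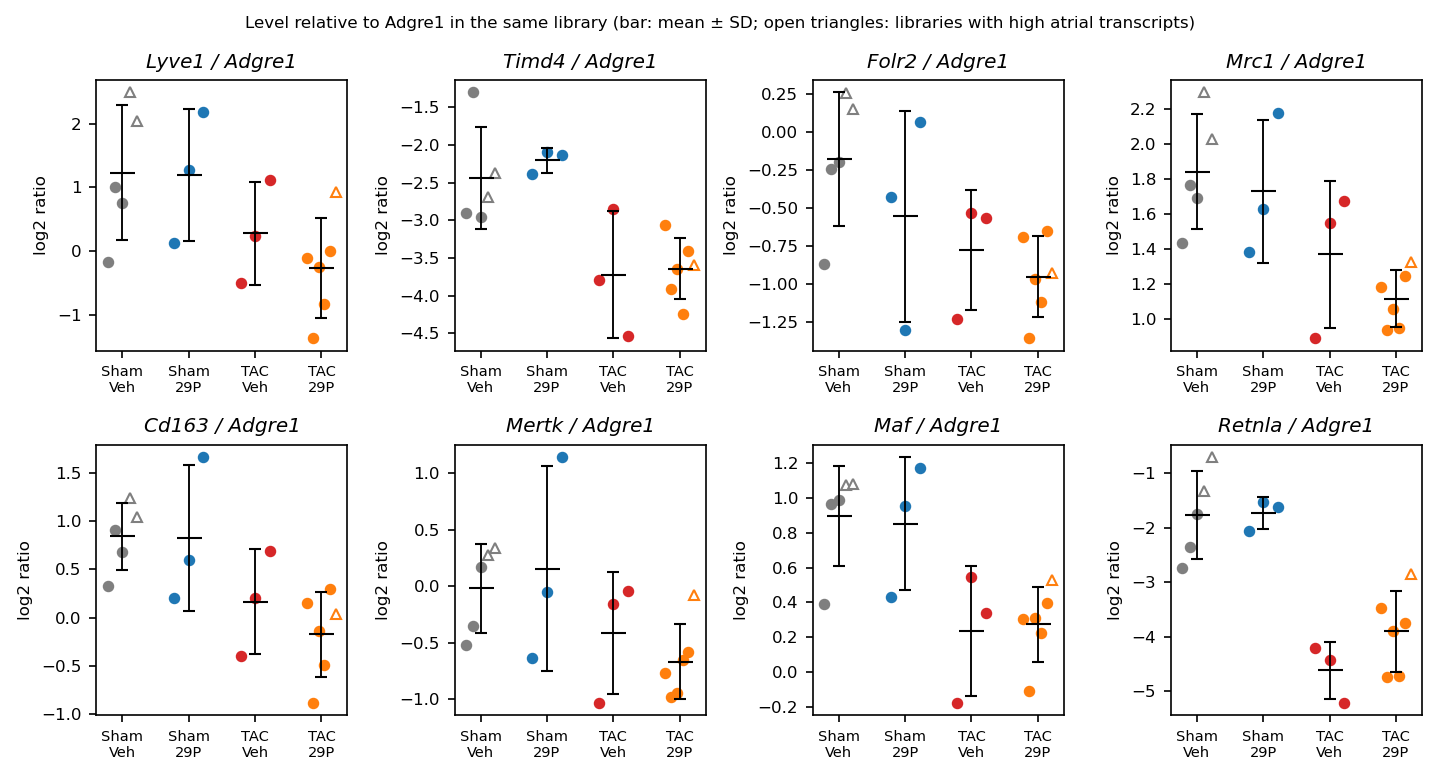
Log2 ratio of each resident-type gene and of Retnla to Adgre1 in the same library, by group, with mean ± SD in black and open triangles for the libraries with high atrial transcripts. The means of both TAC groups lie below those of both Sham groups in all 8 panels, and the ranges of Sham and TAC libraries do not overlap for Retnla.

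The genes of recruited monocytes and activated macrophages went different ways. Of the 6 tested, Trem2 rose and Retnla fell in TAC Veh against Sham Veh mice, where 23.6% of all genes rose and 1.98% fell. Trem2 and Lgals3 rose in TAC 29P against Sham 29P mice, where 31.5% of all genes rose and 1.15% fell. The numbers that rose were thus near the shares of all genes. The medians of the list were 0.73 and 1.10, beside 0.33 and 0.36 for all genes. Trem2, a lipid-sensing receptor that marks lipid-associated macrophages, measured 1.68, 1.70, 2.19, 1.56 and 1.25 CPM in Sham Veh, 2.08, 2.26 and 0.587 CPM in Sham 29P, 6.43, 4.45 and 2.77 CPM in TAC Veh and 3.44 to 4.68 CPM (median 3.71) in TAC 29P. Every TAC library lay above every Sham library. The log2 fold change was 1.33 (standard error 0.34, limma adjusted p = 0.0122) with Veh and 1.397 (standard error 0.33, limma adjusted p = 0.00722) with 29P. After TMM scaling it was 1.01 (limma adjusted p = 0.0608) with Veh, and over the 28 alternatives that adjusted p ran from 0.00173 to 0.188. The log2 ratio of Trem2 to Adgre1, -2.48 ± 0.34 (SD, n = 5) in Sham Veh mice against -2.29 ± 0.48 (SD, n = 3) in TAC Veh, overlapped between the groups.

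Retnla encodes RELM-alpha (Fizz1), a secreted protein of alternatively activated and of some resident macrophages. It measured 1.89, 1.43, 3.18, 3.26 and 5.64 CPM in Sham Veh, 3.64, 3.38 and 2.05 CPM in Sham 29P, 1.65, 0.636 and 0.426 CPM in TAC Veh and 0.686 to 2.71 CPM (median 1.41) in TAC 29P. S12 and S16 lay below every Sham library, S2 lay within the Sham Veh range, and in TAC 29P the atrial library S18 was highest. It fell by 1.71 on the log2 scale with Veh (standard error 0.46, limma adjusted p = 0.0160, exact two-sided permutation p = 0.0714) and by 2.01 after TMM scaling. With 29P the log2 fold change was -1.09 (standard error 0.45, limma adjusted p = 0.0672). Without the atrial libraries these changes were -1.30 (limma adjusted p = 0.0597) and -1.28 (limma adjusted p = 0.0268), and without S16, or with a covariate for the run of animal numbers, no member fell with Veh at the adjusted threshold. Relative to Adgre1 the log2 ratio of Retnla was -2.73 to -0.70 in the 8 Sham and -5.22 to -2.85 in the 9 TAC libraries.

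Lgals3 encodes galectin-3, a secreted lectin of activated macrophages that other cells also make. It measured 1.39, 1.88, 2.85, 17.5 and 8.79 CPM in Sham Veh, 1.52, 1.76 and 1.76 CPM in Sham 29P, 7.03, 3.86 and 6.18 CPM in TAC Veh and 2.91 to 16.4 CPM (median 5.15) in TAC 29P. The values of 17.5, 8.79 and 16.4 CPM belong to the atrial libraries S19, S20 and S18. With Veh the log2 fold change was 0.41 (95% interval -0.99 to 1.81, limma adjusted p = 0.652), and 1.45 (limma adjusted p = 0.0334) without these libraries. With 29P it was 1.76 (limma adjusted p = 0.0444), and 1.47 (limma adjusted p = 0.0129) without them. The 29P value lost its call in 15 of 28 alternatives, TMM scaling among them (1.41, limma adjusted p = 0.152, the highest of the 28). Another high value, 11.2 CPM, was in S3, which is not among them.

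Ly6c2, a surface antigen of inflammatory monocytes, and Plac8, which monocytes express strongly, were low in all libraries. Ly6c2 averaged 0.784 ± 0.267 CPM (SD, n = 5) in Sham Veh mice, against 1.29 ± 0.587 CPM (SD, n = 3) in TAC Veh, a log2 fold change of 0.61 (95% interval -0.25 to 1.47), and its reads can be shared with Ly6c1. Plac8 reached 1.60 CPM in S2 and 2.29 CPM in S3 and had log2 fold changes of 0.86 and 0.88, with intervals that included 0. Gpnmb, a glycoprotein of lipid-laden macrophages, ranged from 0.0447 CPM in S6 to 3.84 CPM in S18, and its changes of 0.999 (95% interval -0.47 to 2.47) and 1.31 (95% interval -0.11 to 2.74) did not pass. Chil3 (Ym1) was at 0 to 0.352 CPM in the Sham libraries and at 0.0485 to 1.29 CPM in the TAC libraries, highest in S3 and then in S18 at 0.503 CPM. Arg1 (arginase 1) was listed at 0 in 8 of the 17 libraries and was highest in S19 at 0.983 CPM. Both are genes of alternatively activated macrophages, and because they did not pass the filter their levels are given without a test.

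Other lists, chosen like the members with earlier results known, were read beside them. Of 17 other macrophage genes tested, 8 rose in TAC Veh against Sham Veh mice, Clec4n (dectin-2) by 1.12, Pld4 by 1.10 and Stab1 by 0.93, and none fell, with a median of 0.74. Of 15 genes of monocyte recruitment and colony-stimulating factor signalling, 7 rose and none fell, with a median of 0.98. Among these Ccr2, the receptor by which monocytes leave the marrow, rose from 4.91 to 11.6 CPM in the mean (log2 fold change 1.27, limma adjusted p = 0.0367) and in the 29P arm from 3.84 to 12.4 CPM (1.76, limma adjusted p = 0.00700). Csf2rb, the beta chain of the receptor for GM-CSF, and Cx3cl1 (fractalkine) rose by 1.19 and 1.12. Of 17 genes of the phagocyte oxidase, Fc receptors and lectins 13 rose, Plcg2 by 1.46 and Fcgr4 by 1.73, and of 12 general leukocyte genes 9 rose, Vav1 by 1.25 and Coro1a by 1.13. Of all genes tested 23.6% rose with Veh. After TMM scaling 2, 1, 5 and 2 genes of these lists rose, where 4.45% of all genes did. The 1 of 15 recruitment and colony-stimulating factor genes was then near the share of all genes. Of the genes named here Pld4, Csf2rb, Plcg2 and Vav1 kept their calls with Veh, and Ccr2, at 0.94 (limma adjusted p = 0.154), Cx3cl1, Clec4n, Stab1, Fcgr4 and Coro1a did not.

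Markers of other cells were read beside the 23.6% of all genes that rose with Veh and the 31.5% that rose with 29P. Among fibroblast markers 5 of 6 rose with Veh, Col1a1 by 2.08, and their summed level was 647 to 1151 CPM in Sham and 995.4 to 2115 CPM in TAC libraries. Of the B cell markers 1 of 6 rose with Veh and 6 of 6 with 29P. Of the T cell markers tested 3 of 5 rose with Veh, and of the dendritic cell markers 2 of 7. Neutrophil markers, which could share Lyz2, Itgam and Fcer1g with macrophages, summed to 1.16 to 6.92 CPM in Sham and 3.90 to 20.2 CPM in TAC libraries, and 1 of 4 tested, Csf3r, rose. Red blood cell transcripts rose with Veh in 4 of 4 cases and with 29P in none, and all 4 were lower with 29P than with Veh after TAC (unadjusted p of 0.05). The part of these cells in the level of the shared genes was not tested.

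With 29P against Veh after TAC, no member passed. At an unadjusted p of 0.05 none of the 37 was higher or lower in TAC 29P against TAC Veh mice (limma), where 0.95% of all genes were higher and 1.11% lower, and no gene of the matrix passed adjustment. Of the 37 members 32 had a log2 fold change below 0, with a median of -0.15 against -0.02 for all genes. No member was without overlap between the groups, where 0.987% of all genes were lower without overlap. The change of C1qb was -0.32 (95% interval -0.76 to 0.13, unadjusted p = 0.152), that of Fcgr1 -0.39 (95% interval -1.13 to 0.36), that of Lyve1 -0.56 (95% interval -1.45 to 0.34) and that of Retnla 0.70 (95% interval -0.24 to 1.64). The member with the lowest p was Mrc1, at -0.26 (95% interval -0.56 to 0.03, unadjusted p = 0.0789 in limma). The intervals of C1qb, Fcgr1, Lyve1 and Mrc1 include 0 and also falls of more than 0.5 on the log2 scale.

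The direction within TAC rested on few libraries. Without S2 the median of the members was 0.08, 14 of 37 lay below 0 and 1 was higher at an unadjusted p of 0.05, where 1.09% of all genes were. Without S12 the median was -0.36 and 4 were lower, where 2.26% of all genes were. With a covariate for the run of animal numbers 9 members were lower, where 2.02% of all genes were, and 36 of 37 lay below 0 with a median of -0.42. Only 1 TAC Veh library, S2, lies in the run that holds 5 of the 6 TAC 29P libraries, so a comparison within that run has no replicate in TAC Veh. The summed level of the members there was 1360 CPM in S2 and 851 to 1106 CPM in the 5 TAC 29P libraries.

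In Sham mice 3 members passed an unadjusted p of 0.05 as lower with 29P and none as higher (limma), where 5.15% of all genes were lower and 1.57% higher, and no member passed adjustment. Fcer1g averaged 5.68 ± 1.06 CPM (SD, n = 5) in Sham Veh mice, against 3.61 ± 1.48 CPM (SD, n = 3) in Sham 29P, a log2 fold change of -0.72 (unadjusted p = 0.00929, adjusted p = 0.715 in limma). Aif1 changed by -0.59 (unadjusted p = 0.0182, adjusted p = 0.715 in limma) and Lyz2 by -0.39 (unadjusted p = 0.0390, adjusted p = 0.715 in limma). For Fcer1g and Aif1 all 3 Sham 29P libraries lay below the 5 Sham Veh libraries. Of all 16218 genes tested, 245 were lower without overlap in this way. The median of the members was -0.32, and 28 of 37 lay below 0. Without S14 none was lower, where 1.41% of all genes were, and the median was -0.06. Without S4 19 were lower, where 13.9% of all genes were, and the median was -0.61 against -0.14 for all genes.

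**Figure D5:**
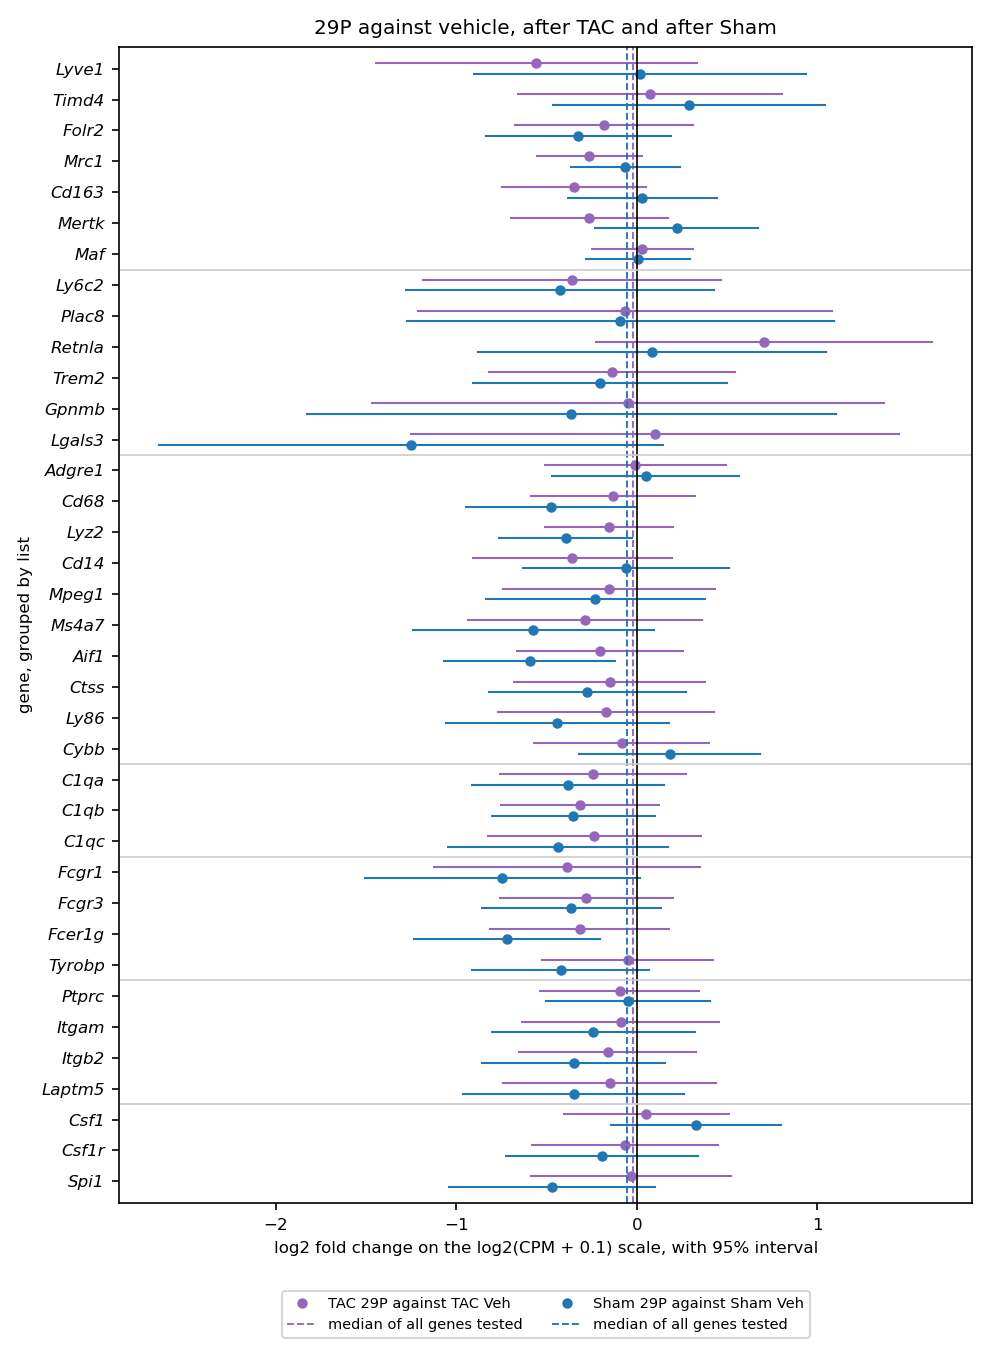
Log2 fold change of the 37 members tested for TAC 29P against TAC Veh (purple) and Sham 29P against Sham Veh (blue), with 95% intervals. Dashed lines mark the median of all genes tested, -0.02 and -0.06, and the interval of every member after TAC includes 0.

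The change after TAC was compared between the arms directly. No member differed at an unadjusted p of 0.05 between the change with 29P and the change with Veh (limma), where 1.92% of all genes were higher and 0.937% lower. The largest difference was that of Lgals3, 1.35 (95% interval -0.60 to 3.30, unadjusted p = 0.162, adjusted p = 0.999 in limma), which was 0.02 without the atrial libraries. For C1qb the difference was 0.04 (95% interval -0.60 to 0.67) and for Adgre1 -0.06 (95% interval -0.79 to 0.67). Counting members without overlap, 24 were higher in TAC Veh than in Sham Veh libraries and 22 in TAC 29P than in Sham 29P libraries, where 27.6% and 25% of all genes were.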

How the data were processed

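Left ventricular apex RNA of 17 mice was sequenced from poly(A) libraries. Alignment by the authors used STAR 2.3.7 (Partek Flow, mm10), and they deposited CPM plus 0.0001. The counting tool, strand setting and gene filter are not given in the sources used here. Low values (below 2 CPM) were whole multiples of a step, within 0.03 steps, for 78.0 to 80.9% of values, so reads were not restored, no count test was run, and depth is an estimate.

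Groups came from the sample labels. Values were taken as log2(CPM + 0.1), and genes with at least 0.5 CPM in 3 libraries (16218) were fitted with limma 3.58.1 in R 4.3.3 (group means over all libraries, trended prior, Benjamini-Hochberg adjustment). This was checked on simulated data. Exact two-sided permutation tests used scipy 1.17.1. P-values measure the spread between mice. TMM scaling trimmed 30% of log ratios and 5% of mean levels.

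The members and lists were chosen with earlier results of these data known. All members are described, and from every other list at most 3 genes that rose and 3 that fell with Veh, those with the largest changes. Some genes that this rule would name are not reported here. The promoters shown follow the mean CPM of members that hold the motif, leaving out chromosome 18. Coordinates are from GENCODE vM21, which may differ from the release the authors used, and promoters from RefSeq.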

Additional observations from a re-analysis of the deposited data

Results flagged for a closer look

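In 4 of 76 groups of 4 to 6 libraries tested for a single distant value, one library stood apart from the others of its group for a member. Chance flags about 1 in 20 groups. Mertk was at 19.1 CPM in S18, against 11.6 to 13.2 CPM in the other TAC 29P libraries. Plac8 was at 2.29 CPM in S3, against 0.408 to 0.739 CPM in the other TAC 29P libraries. C1qa was at 39.8 CPM in S20, against 27.0 to 29.7 CPM in the other Sham Veh libraries. Fcgr1 was at 3.31 CPM in S6, against 2.55 to 2.73 CPM in the other Sham Veh libraries. S18 and S20 are libraries with high atrial transcripts and belong to the same run of animal numbers.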

How the results depend on the processing

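Counts of members called moved with the scaling and with single libraries. In TAC Veh against Sham Veh mice 27 rose, against 7 with TMM or median-of-ratios scaling, 17 with totals without mitochondrial genes, 3 with TMM scaling without the atrial libraries (chosen after the data were seen) and 0 to 29 with 1 library left out (0 without S2, 17 without S16), and the 1 that fell became 0 with the run covariate and without the atrial libraries, and 0 to 1 with 1 library left out. In TAC 29P against Sham 29P mice 28 rose, against 17 with TMM or median-of-ratios scaling, 5 with the run covariate, 18 with TMM scaling without the atrial libraries and 16 to 28 with 1 library left out. There 0 fell, against 1 at an unadjusted p, with TMM or median-of-ratios scaling, with only the groups compared, with the run covariate, without the atrial libraries and with TMM scaling without them, and 0 to 1 with 1 library left out. In TAC 29P against TAC Veh mice 0 were lower, against 1 with only the groups compared, 9 with the run covariate, 1 without the atrial libraries, 2 with TMM scaling without them and 0 to 4 with 1 library left out, and 0 to 1 were higher with 1 library left out. In Sham 29P against Sham Veh mice 3 were lower, against 0 with adjusted p, 5 with TMM or median-of-ratios scaling, 1 with the run covariate, 0 without the atrial libraries under either scaling and 0 to 19 with 1 library left out, and 1 was higher with the run covariate. For the difference between the surgery changes, 2 were lower without the atrial libraries, 3 with TMM scaling without them, and 0 to 6 were higher with 1 library left out. The cause of these shifts was not tested.

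Of 82 fold changes of single genes 77 kept their direction under all alternatives run. With Veh, Lyve1 (0.19) was -0.14 with TMM and -0.13 with median-of-ratios scaling, -0.04 without S5 and -0.15 without S16 (-0.15 to 0.45 with 1 library left out), and Timd4 (-0.14) was 0.22 with the run covariate, 0.06 without S6 and 0.33 without S16 (-0.40 to 0.33). With 29P, Cd163 (0.08) was -0.28 with TMM, -0.27 with median-of-ratios scaling, -0.094 with totals without mitochondrial genes, -0.30 with TMM scaling without the atrial libraries and -0.039 without S14 (-0.039 to 0.20). Mertk (0.26) was -0.10, -0.10 and -0.20 with TMM, median-of-ratios and TMM scaling without the atrial libraries, and Csf1 (0.35) was -0.017 with TMM and -0.0098 with median-of-ratios scaling. No paired analysis was possible because the groups share no replicate numbers. Groups of 3 libraries, and members below about 1 CPM, limit what could be detected.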
